A study of Rattus norvegicus with 9 samples.

Results

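The genes by which astrocytes take up glutamate, turn it into glutamine, move water and couple to one another were followed in rat brain tissue after a modelling step and treatment. They were given as Ensembl identifiers paired with symbols and are 6 of the 32623 genes in the count table. Those named are Slc1a2 (ENSRNOG00000005479), Slc1a3 (ENSRNOG00000016163), Glul (ENSRNOG00000049560), Aqp4 (ENSRNOG00000016043), Gja1 (ENSRNOG00000000805) and S100b (ENSRNOG00000001295). All 6 were abundant enough to be among the 15402 genes tested. The reference table used here holds an Ensembl identifier for 0 of its 47357 genes, so the pairing of these identifiers with symbols was taken as given and was not checked against it. For the same reason the expression of other astrocyte genes, and of neuronal, oligodendrocyte, microglial or endothelial markers, was not analysed here, and the tissue label was not checked against such markers.

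The 9 libraries came from brain tissue of Rattus norvegicus, with 3 each for saline, rt-PA and Nano-patrol+NIR. All 3 groups went through the modelling step, which the labels do not describe, were injected 4.5 h later and gave tissue 3 days after that. Strain, age, sex and brain region were not given in the sources used here, and the 3 groups include no animals spared that step. rt-PA is recombinant tissue plasminogen activator, a clot-dissolving protease; the table's columns and the sample descriptions call this group uk instead, and the agent was not resolved. The labels do not describe Nano-patrol+NIR further. Nor do they say that the libraries of a group are separate animals, and a p-value here therefore reflects library-to-library spread that may be technical.

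Astrocytes clear glutamate from the synaptic space through sodium-coupled transporters in their membranes. Inside the astrocyte, glutamine synthetase joins ammonia to the glutamate, and the glutamine is passed back to neurons as a precursor for new transmitter. Aquaporin-4 sits mainly in the end-feet that wrap brain vessels and carries water between blood, brain and cerebrospinal fluid, and the connexin Cx43 forms the gap junctions that join astrocytes into a network. S100B is a calcium-binding protein made mostly by astrocytes and also by some oligodendrocyte-lineage cells, and its release into blood is used as a marker of brain injury.

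RefSeq start sites were found by symbol for all 6 genes, 11 in all on the GRCr8 build, and the build behind the counts is not given in the sources used here. Counts are per gene and do not tell start sites apart. The 120 bases directly upstream of selected start sites are shown 5′ to 3′ on the gene's strand. They cover the 2 glutamate transporters, whose group means came in different orders, and Aqp4 and Gja1, whose counts ran together across libraries. Capitals mark a CCAAT box, spelled CCAAT, or an AP-1 site, spelled TGANTCA. The TATA box TATAAA, the GC box GGGCGG and the STAT site TTCNNNGAA were searched as well, and all 5 motifs on both strands. The stretches are, in order, chr3:109459989-109460108 (plus strand), chr3:109507827-109507946 (plus), chr2:59557809-59557928 (minus), chr18:6798843-6798962 (minus) and chr20:36302444-36302563 (plus).
Slc1a2, start 1: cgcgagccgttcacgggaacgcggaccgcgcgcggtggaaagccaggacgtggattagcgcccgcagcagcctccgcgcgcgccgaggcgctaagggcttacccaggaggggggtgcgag
Slc1a2, start 2: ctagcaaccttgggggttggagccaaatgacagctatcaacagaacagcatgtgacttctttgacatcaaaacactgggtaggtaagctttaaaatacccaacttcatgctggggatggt
Slc1a3, start 1: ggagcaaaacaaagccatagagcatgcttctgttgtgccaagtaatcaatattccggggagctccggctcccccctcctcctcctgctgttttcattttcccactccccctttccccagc
Aqp4, start 1: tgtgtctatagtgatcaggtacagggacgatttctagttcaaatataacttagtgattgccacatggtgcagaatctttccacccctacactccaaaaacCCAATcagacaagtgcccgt
Gja1, start 1: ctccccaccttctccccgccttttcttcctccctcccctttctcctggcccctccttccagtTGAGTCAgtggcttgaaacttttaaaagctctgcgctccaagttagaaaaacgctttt

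Over the 250 bases upstream of each start, both Slc1a2 windows and all 3 Slc1a3 windows held none of the 5 motifs. The 3 Slc1a3 starts lie close together, so their windows overlap almost in full and are not 3 separate observations among the 11. The first Slc1a2 window was 71.2% G and C and the second 45.6%. Gja1 was the member with an AP-1 site, TGAGTCA, at bases -58 to -52 from its start, a motif in 6.34% of 33469 such windows over all genes. A CCAAT box was found in 4 of the 11 member windows (both of Glul, the first of Aqp4 and that of S100b), against 34% of all windows, and the GC box in 3 (both of Glul and the first of Aqp4), against 30.5%. TATAAA (12.9% of all windows) and the STAT site (7.67%) were in none of the 11. These are letter matches in short windows and say nothing of binding.

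Library totals ran from 13059048 to 14992109 counts, and the 6 genes together took 0.289% to 0.49% of them. Values are CPM, which puts counts on the scale of a fixed total after TMM scaling (a correction of library totals for composition), and each gene is compared with itself across libraries, since counts were not corrected for gene length. One library of each group stood apart across all tested genes. Saline 1 correlated with the other saline libraries at 0.9261 and 0.9307, against 0.9903 between those; rt-PA 3 correlated with its group at 0.913 and 0.8962, against 0.9836; and Nano-patrol+NIR 3 at 0.9401 and 0.9441, against 0.9851. Genes are not independent replicates in these coefficients. For several results that rest on these libraries, values without them are given as well.

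With edgeR's quasi-likelihood test and an adjusted p under 0.05 over all tested genes as the threshold, 0 of the 6 genes were called in any of the 3 comparisons. Over all tested genes the share called was itself 0.00649% for rt-PA against saline, likewise 0.00649% for Nano-patrol+NIR set against saline and 0% between both treatments. At an unadjusted p under 0.05, the members passing numbered 1 for rt-PA against saline (Slc1a3; 17% of all tested genes), 2 for Nano-patrol+NIR against saline (Slc1a2 and Slc1a3; 5.89%) and 1 for Nano-patrol+NIR against rt-PA (Slc1a2; 13.8%). DESeq2 called Slc1a3 for rt-PA against saline and Slc1a2 for Nano-patrol+NIR against rt-PA, 1 of the 6 genes in each case, where its share over all tested genes was 6.88% and 4.07%. For Nano-patrol+NIR against saline DESeq2 called 0 members and 0.857% of all tested genes. limma-voom called 0 members in each comparison, and over all tested genes 0% for both comparisons with saline and 0.00649% between both treatments. The median log2 difference of the 6 genes was -0.16 for rt-PA against saline, where the median of all tested genes was -0.009, and -0.16 for Nano-patrol+NIR against saline, where it was -0.013. For Nano-patrol+NIR against rt-PA the 6 genes had a median of 0.002 and all tested genes 0.023. The lower and upper quartiles of all tested genes were -0.338 and 0.311, -0.196 and 0.186, and -0.267 and 0.322, in the same order. Each median of the 6 genes lay between them. These comparisons share groups, so their values are not independent of one another.

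**Figure D1:**
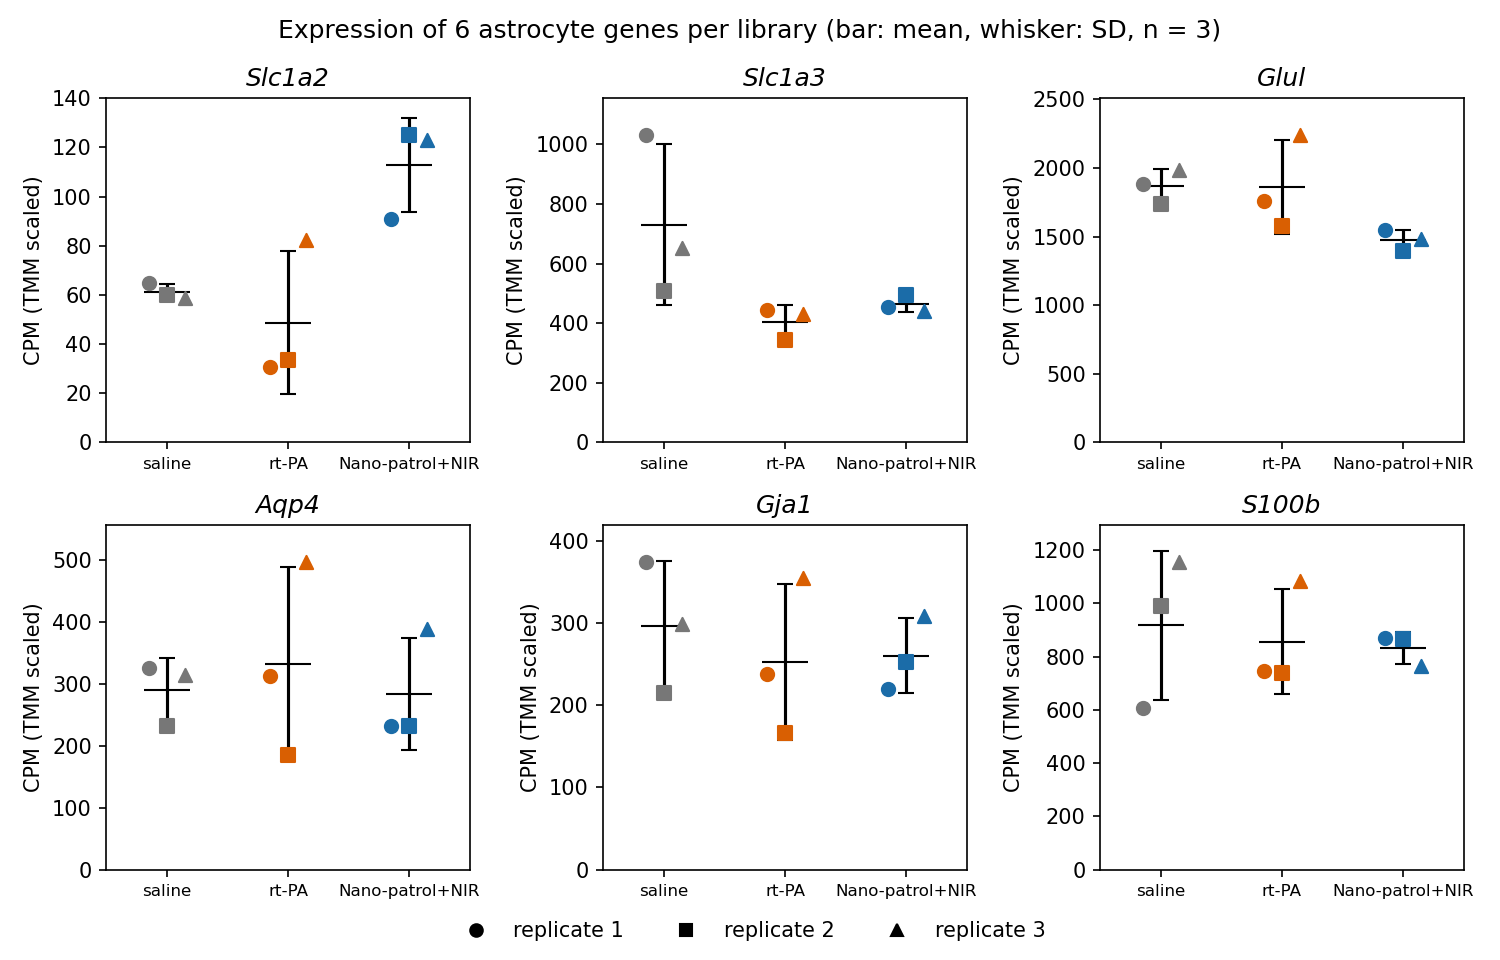
Each panel plots 1 gene in the 9 libraries, with TMM-scaled CPM on a linear vertical axis from 0 and the groups along the horizontal axis; symbols mark the replicate number, the horizontal bar is the mean and the whisker the SD of 3 libraries. Slc1a2 lies at 90.9 to 125 CPM in Nano-patrol+NIR, above all other libraries, while rt-PA 3 is the highest rt-PA library for 5 of the 6 genes.

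Slc1a2 encodes GLT-1, also called EAAT2, the transporter that carries most glutamate uptake in the adult forebrain. It stood at 64.7, 60.1 and 58.9 CPM in saline 1, 2 and 3, at 30.6, 33.4 and 82.2 CPM in rt-PA 1, 2 and 3, and at 90.9, 125 and 123 CPM in Nano-patrol+NIR 1, 2 and 3. All 3 Nano-patrol+NIR libraries were above every saline and every rt-PA library, saline was tight, and rt-PA 3 lay above saline while rt-PA 1 and 2 lay below it. Group means were 48.7 ± 29 CPM in rt-PA, 61.2 ± 3.07 CPM in saline and 112.9 ± 19.1 CPM in Nano-patrol+NIR (SD, n = 3 each). Between rt-PA 3 and the lowest Nano-patrol+NIR library the gap was narrow, at 82.2 and 90.9 CPM. Counts of Slc1a2 ran from 396 to 1765 per library. The transcript is usually abundant in adult forebrain; whether the gene model counted or the pairing of identifier with symbol had a part in these counts was not tested. In tissue RNA, fewer astrocytes and less RNA of a gene per astrocyte cannot be told apart, for this and all other members.

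The log2 difference of Slc1a2 between Nano-patrol+NIR and rt-PA was 1.21 (SE 0.36, edgeR adjusted p = 0.224), a fold of 2.32 with a 95% interval of 1.32 to 4.07 before any adjustment for the number of genes. Between Nano-patrol+NIR and saline it was 0.88 (SE 0.36, edgeR adjusted p = 0.798), a fold of 1.84 with an interval of 1.05 to 3.23. Between rt-PA and saline it was -0.33 (SE 0.35, edgeR adjusted p = 0.668), with an interval from 0.456-fold to 1.39-fold. Among all tested genes, 3.71% had a smaller unadjusted p than Slc1a2 between both treatments, and 4.39% between Nano-patrol+NIR and saline.

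The rt-PA values of Slc1a2 moved with each rt-PA library. Without rt-PA 1 the log2 difference between rt-PA and saline was -0.07 (edgeR adjusted p = 0.957) and without rt-PA 2 it was -0.12 (edgeR adjusted p = 0.94). That between Nano-patrol+NIR and rt-PA was then 0.94 and 1.00 (edgeR adjusted p = 0.557 and 0.677). Without rt-PA 3 the log2 difference between rt-PA and saline was -0.91 (edgeR adjusted p = 0.0163) and that between Nano-patrol+NIR and rt-PA 1.79 (edgeR adjusted p = 0.00192), both past the threshold. In that fit 2112 and 2047 of 15672 genes passed as well, 13.5% and 13.1%. Leaving out 1 library at a time, Slc1a2 for Nano-patrol+NIR against saline ranged from 0.80 to 1.01 and was not called. The SE of this comparison in the main fit draws on all 9 libraries, those of rt-PA among them. With only the 6 libraries compared, the log2 difference was 0.89 (SE 0.16, edgeR adjusted p = 0.159). Without rt-PA 3 it was 0.88 (SE 0.15, edgeR adjusted p = 0.0816). Without all 3 libraries that stood apart, Slc1a2 was called in all 3 comparisons, at log2 differences of -0.85 for rt-PA against saline, 0.87 for Nano-patrol+NIR against saline and 1.71 for Nano-patrol+NIR against rt-PA (edgeR adjusted p = 0.00184, 0.0145 and 4.52e-05). That fit called 6710, 501 and 6195 of 15309 genes, or 43.8%, 3.27% and 40.5%, and since it leaves out the libraries farthest from their groups, its spread is too small. With DESeq2 on all libraries the difference between Nano-patrol+NIR and rt-PA was 1.19 (DESeq2 adjusted p = 0.0457).

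Slc1a3 encodes GLAST, or EAAT1, the second glial glutamate transporter, prominent in cerebellar Bergmann glia and in developing and reactive astrocytes. It stood at 1032, 508.5 and 653 CPM in saline 1, 2 and 3, at 445 CPM, 343 CPM and 429 CPM in rt-PA 1, 2 and 3, and at 456, 496 and 441 CPM in Nano-patrol+NIR 1, 2 and 3. Every saline library was above every treated library, though saline 2 was above Nano-patrol+NIR 2 by little, and the treated groups overlapped. Means were 731 ± 270.1 CPM in saline, 406 ± 55.4 CPM in rt-PA and 464 ± 28.2 CPM in Nano-patrol+NIR (SD, n = 3 each), so the spread of saline was the widest, and saline 1 set it.

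The log2 difference of Slc1a3 was -0.85 for rt-PA against saline (SE 0.27, edgeR adjusted p = 0.174), a fold of 0.555 with a 95% interval of 0.365 to 0.844. For Nano-patrol+NIR against saline it was -0.66 (SE 0.27, edgeR adjusted p = 0.801), a fold of 0.635 with an interval of 0.418 to 0.964. For Nano-patrol+NIR against rt-PA it was 0.19 (SE 0.26, edgeR adjusted p = 0.784), with an interval from 0.755-fold to 1.73-fold. DESeq2 put the rt-PA difference from saline at -0.82 (DESeq2 adjusted p = 0.0472). Without the 3 libraries that stood apart the rt-PA difference was -0.51 (edgeR adjusted p = 0.0265), past the threshold as for 43.8% of genes in that fit, whose spread is too small. The Nano-patrol+NIR difference from saline in the same fit was -0.28 (edgeR adjusted p = 0.4). Without saline 1 alone the log2 difference from saline was -0.48 for rt-PA (edgeR adjusted p = 0.226) and -0.31 for Nano-patrol+NIR (edgeR adjusted p = 0.798). When libraries were scaled by their totals alone, the Nano-patrol+NIR libraries reached 486 CPM and the lowest saline library 475 CPM, so those groups then overlapped, while the rt-PA libraries, at most 449 CPM, stayed below saline.

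The group means of the transporters came in different orders, with Slc1a2 highest in Nano-patrol+NIR and Slc1a3 highest in saline. Their ratio within a library does not depend on how libraries are scaled. Slc1a2 counts were 6.27%, 11.8% and 9.01% of Slc1a3 counts in saline 1, 2 and 3, and 6.86%, 9.74% and 19.1% in rt-PA 1, 2 and 3. They were 19.9%, 25.2% and 27.8% in Nano-patrol+NIR 1, 2 and 3, above each of the 6 other libraries, with rt-PA 3 just below. The ratio was looked at after the values of both genes had been seen and was not tested. It compares libraries only, since gene lengths were not used.

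Glul encodes glutamine synthetase, the astrocyte enzyme that turns glutamate into glutamine. It stood at 1880, 1738 and 1988 CPM in saline 1, 2 and 3, at 1756, 1580 and 2240 CPM in rt-PA 1, 2 and 3, and at 1545, 1394 and 1483 CPM in Nano-patrol+NIR 1, 2 and 3. All 3 Nano-patrol+NIR libraries were below every other library, with 1545 and 1580 CPM at the border to rt-PA, and saline and rt-PA overlapped. The means were 1859 ± 342 CPM in rt-PA, 1869 ± 125.5 CPM in saline and 1474 ± 76.1 CPM in Nano-patrol+NIR (SD, n = 3 each). The log2 difference of Glul was -0.34 between Nano-patrol+NIR and saline (SE 0.2, edgeR adjusted p = 0.979) and -0.33 between Nano-patrol+NIR and rt-PA (SE 0.2, edgeR adjusted p = 0.495), with 95% intervals of 0.577-fold to 1.08-fold and 0.58-fold to 1.08-fold. Without rt-PA 3 the difference between Nano-patrol+NIR and rt-PA was -0.215 (edgeR adjusted p = 0.478), and over the fits that each dropped 1 library it lay between -0.44 and -0.215. Between rt-PA and saline it was -0.008 (SE 0.2, edgeR adjusted p = 0.987), with an interval of 0.727-fold to 1.36-fold. Scaled by totals alone, the Nano-patrol+NIR libraries reached 1631 CPM, above the lowest saline library at 1624 CPM and the lowest rt-PA library at 1500 CPM, so neither separation held under that scaling.

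Of the 6 genes, 1 did not overlap between rt-PA and saline (Slc1a3, lower in rt-PA), where 19.5% of tested genes did not overlap. Between Nano-patrol+NIR and saline the count was 3 (Slc1a2 higher, Slc1a3 and Glul lower in Nano-patrol+NIR), where the share over all genes was 14.5%. With library totals alone it was 1, Slc1a2, where 13.4% of tested genes did not overlap. Between Nano-patrol+NIR and rt-PA 2 genes did not overlap (Slc1a2 higher, Glul lower in Nano-patrol+NIR), against 17.4% of all tested genes, and with library totals 1 (Slc1a2), against 17%. Between rt-PA and saline library totals gave 1 as well (Slc1a3), against 18.3%. The smallest two-sided p that exact permutation of 3 and 3 libraries allows is 0.1, so single genes were not tested that way.

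**Figure D2:**
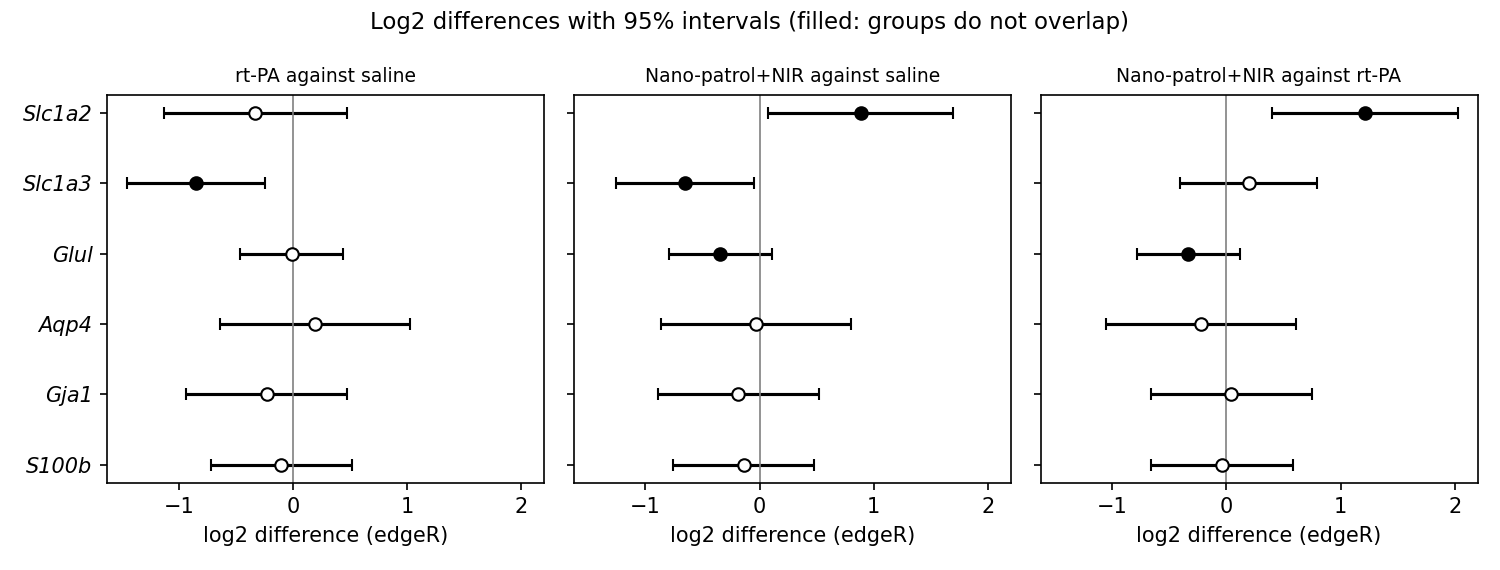
Each panel plots 1 comparison, with edgeR's log2 difference on the horizontal axis, the first-named group minus the second, and the 6 genes on the vertical axis; whiskers are 95% intervals not adjusted for the number of genes. Filled points mark groups that do not overlap in TMM-scaled CPM; Slc1a2 sits at 1.21 for Nano-patrol+NIR against rt-PA and Slc1a3 at -0.85 for rt-PA against saline, and with library totals alone only Slc1a2 (against both groups) and Slc1a3 (rt-PA against saline) keep that separation.

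Aqp4, the water channel of astrocyte end-feet, had no group apart from the others. It stood at 326, 231 and 314 CPM in saline 1, 2 and 3, at 313, 184.5 and 497 CPM in rt-PA 1, 2 and 3, and at 231, 232 and 388 CPM in Nano-patrol+NIR 1, 2 and 3. The highest and the lowest library of all 9 were both rt-PA, 2.69-fold apart, and the 3 groups overlapped. Means were 290.4 ± 51.6 CPM in saline, 331.5 ± 157 CPM in rt-PA and 284 ± 90.4 CPM in Nano-patrol+NIR (SD, n = 3 each). The log2 difference of Aqp4 from saline was 0.19 for rt-PA (SE 0.37, edgeR adjusted p = 0.826) and -0.03 for Nano-patrol+NIR (SE 0.37; the adjusted p rounded to 1), with 95% intervals of 0.641-fold to 2.03-fold and 0.549-fold to 1.74-fold. Between Nano-patrol+NIR and rt-PA it was -0.22 (SE 0.37, edgeR adjusted p = 0.822). Without rt-PA 3 the rt-PA difference from saline turned to -0.2 and that between Nano-patrol+NIR and rt-PA to 0.16 (edgeR adjusted p = 0.737 and 0.795).

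Gja1 encodes the connexin Cx43, the main astrocyte gap junction protein. It stood at 375, 215.5 and 300 CPM in saline 1, 2 and 3, at 238, 167 and 355 CPM in rt-PA 1, 2 and 3, and at 220, 253 and 309 CPM in Nano-patrol+NIR 1, 2 and 3. The 3 groups overlapped, and saline 1 was the highest library and rt-PA 2 the lowest. Means were 297 ± 79.7 CPM in saline, 253 ± 94.8 CPM in rt-PA and 261 ± 45.3 CPM in Nano-patrol+NIR (SD, n = 3 each). The log2 difference of Gja1 from saline was -0.23 for rt-PA (SE 0.31, edgeR adjusted p = 0.739) and -0.19 for Nano-patrol+NIR (SE 0.31; the adjusted p rounded to 1). It was 0.04 for Nano-patrol+NIR against rt-PA (SE 0.31, edgeR adjusted p = 0.963). The 95% intervals ran from 0.524-fold to 1.39-fold, 0.54-fold to 1.43-fold and 0.633-fold to 1.68-fold.

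Aqp4 and Gja1 followed each other across the libraries. Over the 9 libraries their log2 CPM had a Pearson r of 0.857 (exact permutation p = 0.00371, adjusted p = 0.0557 over the 15 pairs of the 6 genes) and a Spearman rho of 0.917 (exact permutation p = 0.00131, adjusted p = 0.0197). The permutations shuffled all 9 libraries without regard to group, so these p-values do not allow for differences between groups. Without the 2 libraries farthest from the median of Aqp4 r was 0.735, and without the 3 libraries that stood apart it was 0.832 over 6 libraries. Of deviations from the group means, r was 0.932. Other pairs reached similar or higher values in part of these: without the 3 libraries r was 0.922 for Slc1a3 and Gja1 and 0.905 for Slc1a3 and S100b, and of deviations it was 0.815 for Glul and Aqp4 and 0.769 for Glul and Gja1. Without the 2 libraries farthest from the median of Slc1a3, which were not the 2 left out for Aqp4, r was 0.36 for Slc1a3 and Gja1. By rho Aqp4 and Gja1 were 1 of the 15 pairs with an adjusted p under 0.05 and no other pair passed. By r no pair passed, and the next highest r, 0.64 for Slc1a3 and Gja1, had an adjusted p of 0.393 by the exact permutation test. How often pairs among all tested genes reach such values over these 9 libraries was not computed. The correlation therefore cannot be called particular to these genes. Both genes are read from the same tissue and at the same depth in each library, and whether cell makeup moved with them was not tested.

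**Figure D3:**
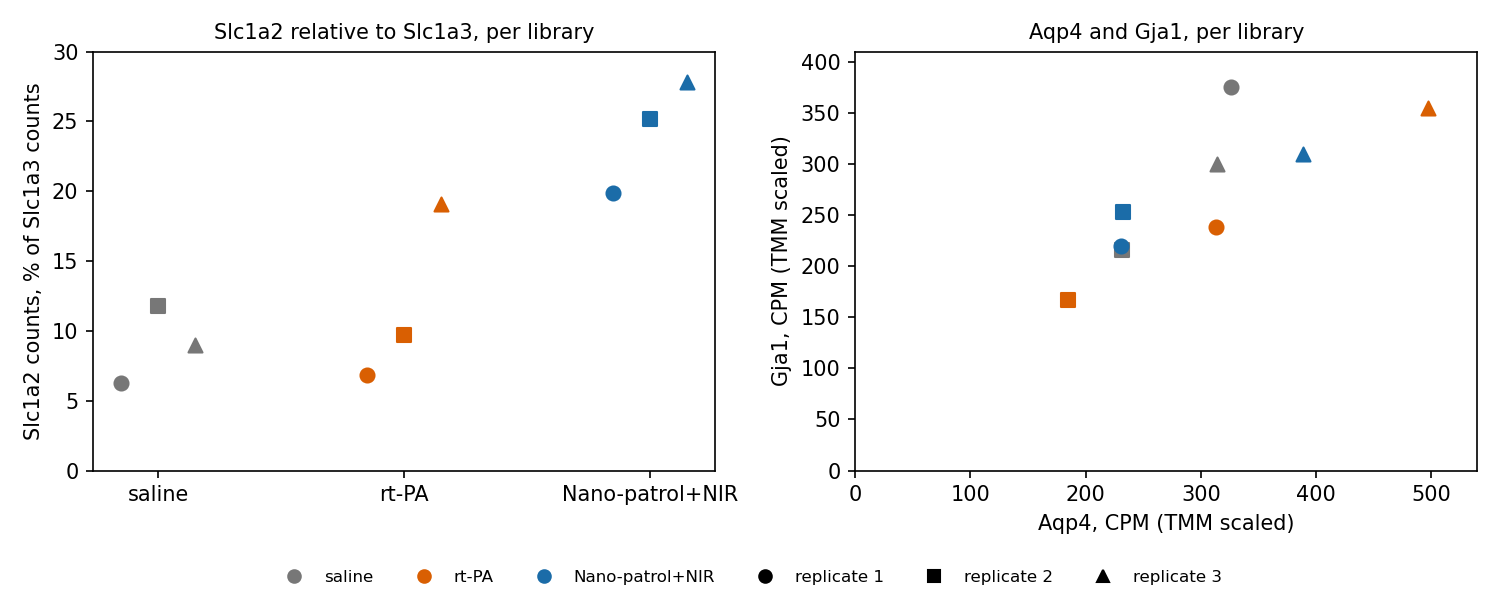
The left panel plots Slc1a2 counts as a percent of Slc1a3 counts in each library, by group, and the right panel plots Gja1 against Aqp4, both as TMM-scaled CPM on linear axes from 0; colours mark the group and symbols the replicate number. The Nano-patrol+NIR libraries lie at 19.9% to 27.8% on the left, and on the right libraries high in Aqp4 are also high in Gja1 (Pearson r 0.857, 9 libraries).

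S100b, the calcium-binding astrocyte protein, stood at 609 CPM, 989 CPM and 1156 CPM in saline 1, 2 and 3. It stood at 746, 738 and 1085 CPM in rt-PA 1, 2 and 3, and at 869.6, 866 and 765 CPM in Nano-patrol+NIR 1, 2 and 3. Saline 1 was the lowest of the 9 libraries and saline 3 the highest, so the saline range spanned the other groups. Means were 918 ± 280.4 CPM in saline, 856 ± 198 CPM in rt-PA and 834 ± 59.7 CPM in Nano-patrol+NIR (SD, n = 3 each). The log2 difference of S100b was -0.1 for rt-PA against saline, -0.14 for Nano-patrol+NIR against saline and -0.04 for Nano-patrol+NIR against rt-PA (SE 0.27 each; edgeR adjusted p = 0.88, 1 after rounding, and 0.962). The 95% intervals lay between 0.592-fold and 1.49-fold. Without the 3 libraries that stood apart, the rt-PA difference from saline was -0.48 (edgeR adjusted p = 0.00545), past the threshold, as it was for 43.8% of genes in that fit, and the spread there is too small because the libraries farthest from their groups are left out.

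The library that stood apart in a group did not stand apart in the same way for all members. In log2 CPM, saline 1 lay farthest from the middle library of its group for 3 of the 6 genes, against 68% of all tested genes. Saline 2 did so for 3 as well, against 17.6%. For rt-PA 3 this held for 4 of the 6 (64.8% of all tested genes) and for Nano-patrol+NIR 3 for 3 (60.4%). rt-PA 3 was the highest rt-PA library for 5 of the 6 genes, Slc1a3 being the exception, where rt-PA 3 was highest for 44% of all tested genes. Saline 1 was the highest saline library for Slc1a2, Slc1a3, Aqp4 and Gja1 and the lowest for S100b, and it was highest for 44% of all tested genes. Nano-patrol+NIR 3 was the highest of its group for Aqp4 and Gja1, 2 of the 6, against 41.6% of all tested genes. The biological coefficient of variation that edgeR estimated ranged from 0.201 for Glul to 0.331 for Aqp4, beside a median of 0.283 over all tested genes.

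Among 11855 other genes averaging at least 5 CPM, those most like the 6 members over the 9 libraries were ENSRNOG00000020571 and ENSRNOG00000002360. Their mean Pearson r with the members was 0.623 and 0.62, and their mean Spearman rho 0.547 and 0.558. ENSRNOG00000002360 ranged from 10.4 CPM in rt-PA 2 to 30.8 CPM in rt-PA 3, and ENSRNOG00000020571 from 3.96 to 10.5 CPM in the same libraries. By Spearman rho other genes ranked first, so the choice depended on the coefficient. Both identifiers are without a symbol here. Each member set against the other 5 had a mean r of 0.122 (S100b) to 0.503 (Gja1). The 2 genes were picked as the highest of 11855 over 9 libraries, which raises their values, while the members were not picked by r. The values of the 2 genes and of the members therefore cannot be compared.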

How the data were processed

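RNA was extracted from brain tissue with Trizol and libraries were made from poly(A)-selected RNA, per the labels' protocols. Tools in the submitters' processing notes, without roles, are HISAT2, StringTie 1.3.1, Bowtie2 2.2.8 and fastp 0.18.0. How reads were counted, the strand setting, build and annotation were not given in the sources used here. As deposited by the authors, the file holds whole-number read counts per Ensembl gene for 9 libraries. Reads shared by overlapping or near-identical genes cannot be told apart in them.

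Counts were fitted in R 4.3.3 with edgeR 4.0.16 (filterByExpr, TMM, robust quasi-likelihood F test, 1 mean per group, all 9 libraries, 6 residual degrees of freedom), with Benjamini-Hochberg adjustment over all 15402 tested genes. Standard errors were the log2 difference over the square root of F. log2 CPM used a prior count of 2. Columns were matched to samples by description. Alternatives were DESeq2 1.42.0, limma-voom (limma 3.58.1), other scalings, no filter, 6-library fits, a replicate block, each library left out and, added after the data were examined, the 3 libraries that stood apart left out. The edgeR, DESeq2 and limma-voom fits were tested on simulated counts for rt-PA against saline. Those counts held no library that stood apart, unlike the data, and the simulation did not cover the other steps. Its outcomes are not given here, and no result above rests on them. The members and lists were chosen with earlier results of these data known. All 6 members are described; the 2 most alike genes were those with the highest mean Pearson r with the members at a mean of at least 5 CPM. Lists of other astrocyte, transporter, S100 and cell type genes, written as symbols, could not be paired with identifiers and were not tested. RefSeq promoters (GRCr8) were matched by symbol.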

Additional observations from a re-analysis of the deposited data

How the results depend on the processing

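With the comparisons ordered as rt-PA to saline, Nano-patrol+NIR to saline and Nano-patrol+NIR to rt-PA, edgeR called 0, 0 and 0 of the 6 genes, and over all genes 1, 1 and 0. DESeq2 called 1, 0 and 1 of the 6 (over all genes 1059, 132 and 627). Fits that each left out 1 library gave 0 to 1, 0 and 0 to 1, the higher value each time without rt-PA 3. Without the 3 libraries that stood apart (saline 1, with rt-PA 3 and Nano-patrol+NIR 3), a fit added after the data were examined, the counts were 3, 1 and 1, beside 43.8%, 3.27% and 40.5% of all 15309 genes tested in it. limma-voom, other scalings, no filter and 6-library fits left 0 in each. The replicate block also called 0 in each, with 0 calls over all genes and, at an unadjusted p under 0.05, 2279, 741 and 1865 genes. Deviations of same-numbered libraries correlated at -0.362 to 0.278. For replicate 2 the value was positive in each pair of groups (0.203, 0.228 and 0.254), and between rt-PA and Nano-patrol+NIR it was positive for each replicate. The library that stood apart was replicate 1 in saline and replicate 3 in the treated groups, which bears on these values. They cannot decide whether the numbers mark pairs, and the numbers were not taken as pairs.

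Slc1a2 ranged without 1 library from -0.91 to -0.07, 0.80 to 1.01 and 0.94 to 1.79, and kept its direction in each comparison under all 17 alternatives, and so did Slc1a3, and Glul in both comparisons with Nano-patrol+NIR. The other differences changed sign under some settings. Glul for rt-PA against saline was 0.018 with DESeq2 and with relative log expression scaling, 0.011 without a filter and -0.14 to 0.097 without 1 library. Aqp4 for Nano-patrol+NIR against saline was 0.007 with library totals alone and -0.33 to 0.096 without 1 library. Without 1 library, rt-PA against saline ranged from -0.196 to 0.48 for Aqp4, -0.53 to 0.004 for Gja1 and -0.29 to 0.12 for S100b. Nano-patrol+NIR against saline ranged from -0.39 to 0.032 for Gja1 and -0.35 to 0.051 for S100b. Nano-patrol+NIR against rt-PA ranged from -0.54 to 0.16 for Aqp4, -0.18 to 0.33 for Gja1 and -0.16 to 0.13 for S100b. Without the 3 libraries that stood apart, Aqp4 was -0.083 for rt-PA against saline and S100b 0.18 for Nano-patrol+NIR against rt-PA. The cause was not tested. Each member had at least 396 counts in each library.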
